A study of Homo sapiens with 6 samples.

Results

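Aldehyde dehydrogenases (ALDHs) were examined in oral squamous cell carcinoma (OSCC) cells with and without knockdown of DLEU1, a long noncoding RNA. The members were ALDH1A1, ALDH1A2, ALDH1A3, ALDH1B1, ALDH1L2, ALDH2, ALDH3A1, ALDH3A2, ALDH3B1, and ALDH3B2. All probes whose gene name in the scanner files is one of these 10 symbols, of 36337 gene names in all, were taken, which gave 15 of 50599 probes. HSC-3, KON, and Ca9-22, which are established human OSCC cell lines, had each been transfected with siDLEU1-2, which targets DLEU1, or with a control small interfering RNA (siCtrl). After 72 h, 100 ng of total RNA was labeled with Cy3 and hybridized to a one-color array, 1 array per line and siRNA and 6 arrays in all, on 1 slide. The lines are therefore the only replicates of the knockdown, no error can be given for a difference inside 1 line, and 1 siRNA sequence stands for the knockdown.

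ALDHs oxidize aldehydes to carboxylic acids with NAD or NADP as the cofactor. The ALDH1A enzymes turn retinaldehyde into retinoic acid, the ligand of the retinoic acid receptors, and high ALDH activity is widely used to sort stem-like cells from squamous carcinomas. The mitochondrial member ALDH2 clears acetaldehyde, and the ALDH3 enzymes act on fatty and aromatic aldehydes, including the products of lipid peroxidation.

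Values are either the processed signal, an intensity after background subtraction, or the level, which is the log2 processed signal minus the 75th percentile of its array. That percentile lay between 200 and 257 in signal units, and between 43.0% and 45.7% of the probes on an array were well above background. The lowest signal of a probe well above background was 16.6 to 24.9. Levels are compared between arrays for 1 probe at a time, never between probes, and the number of arrays limits the precision. DLEU1 itself, the target of siDLEU1-2, fell in every line (limma adjusted p = 0.0227), with log2 fold changes of −3.44 in Ca9-22, −3.63 in KON, and −4.10 in HSC-3. The lines carried squamous markers, with a probe kept for 7 of 7 genes, of which TP63 (−2.46), KRT6A (−1.33), and SFN (−0.81, mean log2 fold changes) fell after siDLEU1-2 by limma and none rose (4.52% of all probes kept fell and 3.98% rose). EPCAM had a mean of 1.09 and did not pass (adjusted p = 0.0741), and the KRT14 probes had −1.72, −1.57, and 0.0080, none of which passed. Of 3 leukocyte markers none had a probe kept, and of 3 fibroblast markers COL1A1, measured on all 6 arrays, rose (mean log2 fold change 1.45), and COL1A2 was above background on none. Of 3 endothelium markers 2, VWF and CDH5, had a probe kept. The part of these marker differences in the values below was not tested.

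Sequences behind the results are shown so that what was measured can be seen, together with the antisense strand of siDLEU1-2. All are written 5′ to 3′. The ALDH probes are from the 2 members with the widest contrasts between arrays and from ALDH3A2, whose probes differed in which contrasts passed. For ALDH3A1 and ALDH3A2 only 1 of the 2 probes is printed, so their probes cannot be compared here. The capitals in the siRNA mark its seed, bases 2 to 8.
siDLEU1-2 antisense: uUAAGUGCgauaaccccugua
ALDH1A1 probe 1 (hg19 chr9:75516136-75516195, minus strand): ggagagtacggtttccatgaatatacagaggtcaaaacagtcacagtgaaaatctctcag
ALDH1A1 probe 2 (hg19 chr9:75540401-75540460, minus strand): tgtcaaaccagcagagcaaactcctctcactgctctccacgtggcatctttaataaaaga
ALDH3A1 probe 2 (hg19 chr17:19643743-19644417, minus strand): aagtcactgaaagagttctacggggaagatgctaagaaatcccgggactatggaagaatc
ALDH3A2 probe 1 (hg19 chr17:19575195-19575254, plus strand): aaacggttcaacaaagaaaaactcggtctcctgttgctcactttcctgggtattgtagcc

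Probes of a gene are numbered by their start on hg19. ALDH3A1 probe 2 has 60 bases but spans 675 bases of the genome, so it reads a spliced transcript. GCACTTA, the heptamer complementary to the siRNA seed, is in none of the 15 member probes; the rest of the transcripts was not searched. The longest run of bases shared by probes of different members was 9. The exon or untranslated region in which each probe lies was not analyzed here.

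The 15 probes fell into 2 classes by detection. On all 6 arrays, 8 probes of 5 genes (ALDH1A3, ALDH1B1, ALDH2, ALDH3A2, and ALDH3B1) were well above background. The other 7, of ALDH1A1, ALDH1A2, ALDH1L2, ALDH3A1, and ALDH3B2, were so on 1 or 2 arrays, 3 probes on 1 array and 4 on 2. No member probe was well above background on 3, 4, or 5 arrays or on none. The tests used 19956 probes, those with a signal well above background in every line on 1 or both arrays, and 8 of 15 member probes passed this filter.

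ALDH3A1, a cytosolic enzyme of aromatic and lipid aldehydes known from the cornea and as a target of the aryl hydrocarbon receptor, was well above background in KON alone. In cultures measured whole, fewer cells with a transcript and less of it per cell cannot be told apart. The signal of ALDH3A1 probe 1 (chr17:19641655-19641714) was 9939 after siCtrl and 5460 after siDLEU1-2 in KON. Its signals were 5.77 and 6.31 for Ca9-22 and 4.57 and 5.39 for HSC-3, none of them well above background. ALDH3A1 probe 2 gave 7605 and 4353 in KON, and 4.06 to 5.99 on the other 4 arrays. The KON arrays thus stood above the other 4 on both probes, with no overlap. Against the detection floor of each dim array, ALDH3A1 probe 1 was at least 353-fold higher in KON than in HSC-3 and at least 303-fold higher than in Ca9-22, and probe 2 at least 276-fold and 237-fold higher. These bounds rest on the background subtraction of the scanner software. With normexp background correction, which adds an offset of 50, the differences of probe 1 were 6.45 and 6.65 on the log2 scale. After siDLEU1-2, ALDH3A1 in KON differed by −0.79 (probe 1) and −0.73 (probe 2) on the log2 scale, a single pair of arrays with no test.

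ALDH1L2, the mitochondrial 10-formyltetrahydrofolate dehydrogenase of folate metabolism, was also above background only in KON (chr12:105420340-105420399). Its signal in KON was 139 after siCtrl and 73.4 after siDLEU1-2. It was 23.3 and 16.8 in HSC-3, and 13.0 and 6.46 in Ca9-22, not well above background. KON was at least 4.25-fold above HSC-3 and at least 4.15-fold above Ca9-22. With normexp, the differences were 0.72 and 1.10 on the log2 scale.

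ALDH3B2, a close relative of ALDH3B1 that is also encoded on chromosome 11 (chr11:67430510-67430569), was above background only in HSC-3. Its signal there was 37.9 after siCtrl and 79.2 after siDLEU1-2. It was 3.72 and 16.8 in KON and 16.2 and 9.94 in Ca9-22, not well above background. HSC-3 was at least 3.36-fold above KON and at least 2.70-fold above Ca9-22. With normexp these differences were 0.99 and 0.87 on the log2 scale.

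ALDH1A1 and ALDH1A2, both retinaldehyde dehydrogenases, were each well above background on a single array, in both cases after siDLEU1-2. In KON, ALDH1A1 probe 1 had a signal of 360 after siDLEU1-2 against 9.52 after siCtrl, and probe 2 had 38.4 against 13.1. On the other 4 arrays ALDH1A1 probe 1 lay between 4.71 and 28.2, and probe 2 between 5.26 and 14.1. Both probes were therefore highest on the same array. ALDH1A1 was at least 21.1-fold higher after siDLEU1-2 in KON by probe 1 and at least 2.26-fold higher by probe 2. The probes thus gave different sizes, and with normexp the log2 differences were 2.44 and 0.38. ALDH1A2 (chr15:58246532-58246591) had a signal of 36.3 after siDLEU1-2 in Ca9-22 against 5.13 after siCtrl, at least 1.62-fold higher, and 3.89 to 4.92 on the other 4 arrays. Each of these rests on 1 array and has no test.

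**Figure D1:**
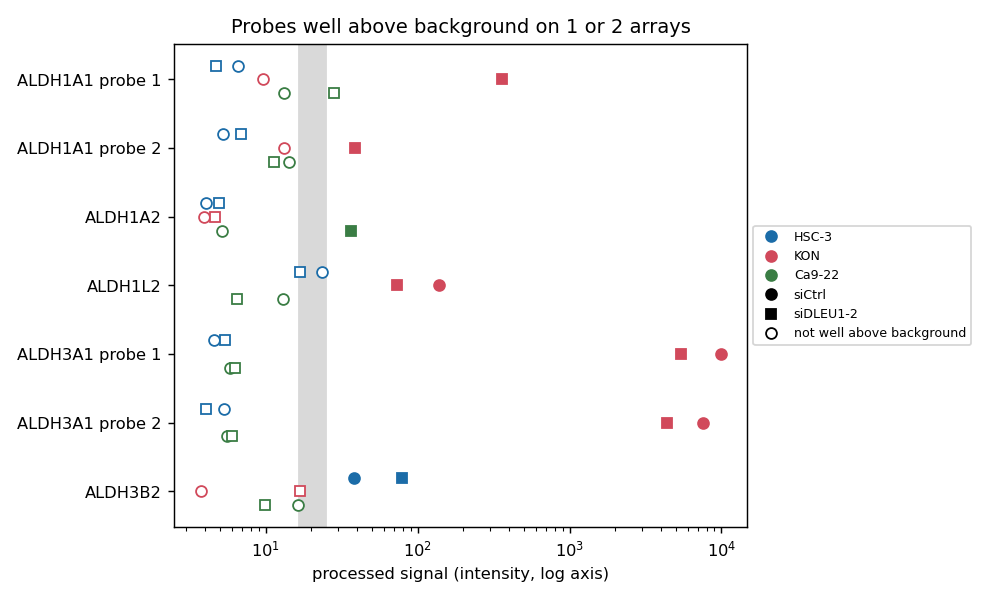
Processed signal (log axis) of the 7 ALDH probes well above background on 1 or 2 arrays, with cell lines by color, siCtrl as circles, siDLEU1-2 as squares, and open symbols for values not well above background. The gray band is the range over the arrays of the lowest signal well above background, 16.6 to 24.9. The ALDH3A1 probes reached 4353 to 9939 in KON and were 6.31 or less in the other lines, and ALDH1A1 was well above background only in KON after siDLEU1-2.

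The 8 probes well above background on all arrays were compared between lines by limma with the siRNA as a term, so that the error is how much the siRNA difference varied between lines. Of the 8, 7 differed between HSC-3 and KON (36.2% of all 19956 probes did), 4 between HSC-3 and Ca9-22 (36.6%), and 6 between KON and Ca9-22 (33.2%). Only ALDH1A3 and ALDH2, 2 of 8, differed in all 3 contrasts (5.91% of all probes). Leaving out a line leaves 1 contrast, which gave 5 calls without Ca9-22 (7 with it), 3 without KON (4 with it), and 6 without HSC-3 (6 with it). Without the siRNA term, 4 calls were made in place of 17, and with every probe tested, dim ones included, 9 of the 17 calls of these 8 probes held. The share of all probes called was not counted in these settings or with a line left out. Whether the losses exceed those of the whole array therefore cannot be seen. KON minus Ca9-22 held without the filter for ALDH1A3, ALDH2, both ALDH3A2 probes, and ALDH3B1 probes 2 and 3. All 3 contrasts of ALDH2, and that of ALDH1A3 between HSC-3 and Ca9-22, held without the siRNA term.

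ALDH1A3, a retinaldehyde dehydrogenase like ALDH1A1 and ALDH1A2, was highest in Ca9-22 (chr15:101456503-101456562). Its levels after siCtrl and siDLEU1-2 were 7.43 and 7.19 in Ca9-22, 6.10 and 4.75 in KON, and 4.62 and 3.48 in HSC-3. The 2 arrays of Ca9-22 lay above those of the other lines, and the lower KON array was just above the higher HSC-3 array. HSC-3 was lower than Ca9-22 by 3.26 ± 0.32 (SE, adjusted p = 0.00643) and lower than KON by 1.37 ± 0.32 (adjusted p = 0.0310). KON was lower than Ca9-22 by 1.88 ± 0.32 (adjusted p = 0.0166). The contrast of HSC-3 with KON was lost without the filter (adjusted p = 0.0874) and without the siRNA term (adjusted p = 0.168), and that of KON with Ca9-22 without the siRNA term (adjusted p = 0.0972).

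ALDH2, the mitochondrial enzyme that clears acetaldehyde, had the order KON, HSC-3, Ca9-22 (chr12:112247448-112247507). Its levels after siCtrl and siDLEU1-2 were 3.65 and 3.30 in KON, 2.16 and 2.42 in HSC-3, and 0.84 and 1.34 in Ca9-22. The pairs of arrays did not overlap between lines. HSC-3 was lower than KON by 1.19 ± 0.26 (SE, adjusted p = 0.0268), and higher than Ca9-22 by 1.20 ± 0.26 (adjusted p = 0.0268). KON was higher than Ca9-22 by 2.38 ± 0.26 (adjusted p = 0.00844). Without the filter, both contrasts with HSC-3 were lost (adjusted p = 0.0787 against KON and 0.0783 against Ca9-22).

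ALDH1B1, a mitochondrial relative of ALDH2, was lowest in HSC-3 (chr9:38397700-38397759). Its levels were 1.87 and 0.91 in KON, 1.25 and 1.14 in Ca9-22, and 0.46 and −1.01 in HSC-3. HSC-3 was lower than KON by 1.67 ± 0.35 (SE, adjusted p = 0.0256) and lower than Ca9-22 by 1.47 ± 0.35 (adjusted p = 0.0349). The arrays of KON lay on both sides of those of Ca9-22, and that difference, 0.20 ± 0.35, did not pass (adjusted p = 0.692). Both calls were lost without the filter (adjusted p = 0.0737 against KON and 0.0952 against Ca9-22) and without the siRNA term (adjusted p = 0.112 and 0.141), and that against Ca9-22 also when KON was left out (adjusted p = 0.0775).

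ALDH3A2, the fatty aldehyde dehydrogenase of the endoplasmic reticulum, had 2 probes, which the files assign to different transcripts. Levels of probe 1 after siCtrl and siDLEU1-2 were 4.67 and 4.49 in KON, 4.86 and 3.56 in HSC-3, and 3.03 and 2.07 in Ca9-22. Those of probe 2 (chr17:19580832-19580891) were 3.89 and 3.86 in KON, 3.06 and 1.71 in HSC-3, and 2.12 and 1.19 in Ca9-22. By both probes KON was higher than Ca9-22, by 2.03 ± 0.31 (SE, adjusted p = 0.0142) and 2.22 ± 0.35 (adjusted p = 0.0148).

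The line means of both ALDH3A2 probes had the order KON, HSC-3, Ca9-22, but different contrasts passed. HSC-3 was higher than Ca9-22 by probe 1 (1.66 ± 0.31, SE, adjusted p = 0.0193), while probe 2 gave 0.73 ± 0.35 (adjusted p = 0.158). HSC-3 was lower than KON by probe 2 (−1.49 ± 0.35, adjusted p = 0.0321), while probe 1 gave −0.37 ± 0.31 (adjusted p = 0.386). Both calls with HSC-3 were lost without the filter (adjusted p = 0.0582 for probe 1 and 0.0897 for probe 2), and that of probe 2 also without Ca9-22 (adjusted p = 0.0593). All 4 calls of ALDH3A2 were lost without the siRNA term (adjusted p = 0.0591 to 0.124). The difference between the probes was not tested.

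ALDH3B1, which acts on aldehydes of lipid peroxidation, was lowest in KON by probes 2 and 3. Levels of ALDH3B1 probe 2 (chr11:67793516-67793575) were −1.97 and −1.31 in KON, −0.33 and 0.81 in HSC-3, and −0.37 and 0.33 in Ca9-22. Both KON arrays lay below the other 4, by this probe and by probe 3 (chr11:67795665-67795724), where KON had −0.77 and −0.26 and the other arrays 0.83 to 2.09. HSC-3 was higher than KON by 1.88 ± 0.20 (probe 2, SE, adjusted p = 0.00735) and 2.01 ± 0.23 (probe 3, adjusted p = 0.00776). KON was lower than Ca9-22 by 1.62 ± 0.20 (adjusted p = 0.00995) and 1.73 ± 0.23 (adjusted p = 0.0107). These 4 calls were lost without the siRNA term (adjusted p = 0.0588 to 0.0950).

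ALDH3B1 probe 1 (chr11:67786661-67786720) had narrower differences. HSC-3 was higher than KON by 0.90 ± 0.25 (SE, adjusted p = 0.0484), a call lost with normexp (adjusted p = 0.0615), with centering on the probes measured on all arrays (adjusted p = 0.0562), without Ca9-22 (adjusted p = 0.0949), without the filter, and without the siRNA term, and KON minus Ca9-22 was −0.80 ± 0.25 (adjusted p = 0.0680). With the same centering on probes measured on all arrays, that contrast passed (−0.96, adjusted p = 0.0427). Between HSC-3 and Ca9-22 none of the 3 ALDH3B1 probes passed, with differences of 0.10 to 0.28.

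**Figure D2:**
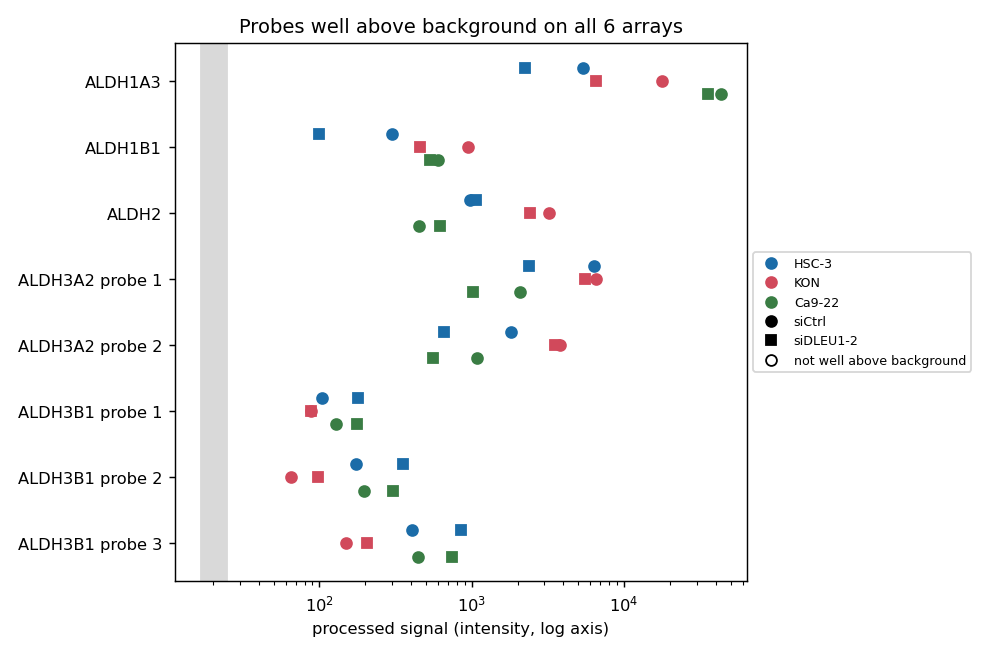
Processed signal (log axis) of the 8 ALDH probes well above background on all 6 arrays, with lines by color and siCtrl as circles and siDLEU1-2 as squares. Symbols are to be compared along 1 row, since probes differ in brightness, and the gray band is the range of the lowest signal well above background. ALDH1A3 was brightest in Ca9-22, ALDH2 in KON, and ALDH3B1 was dimmest in KON.

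**Figure D3:**
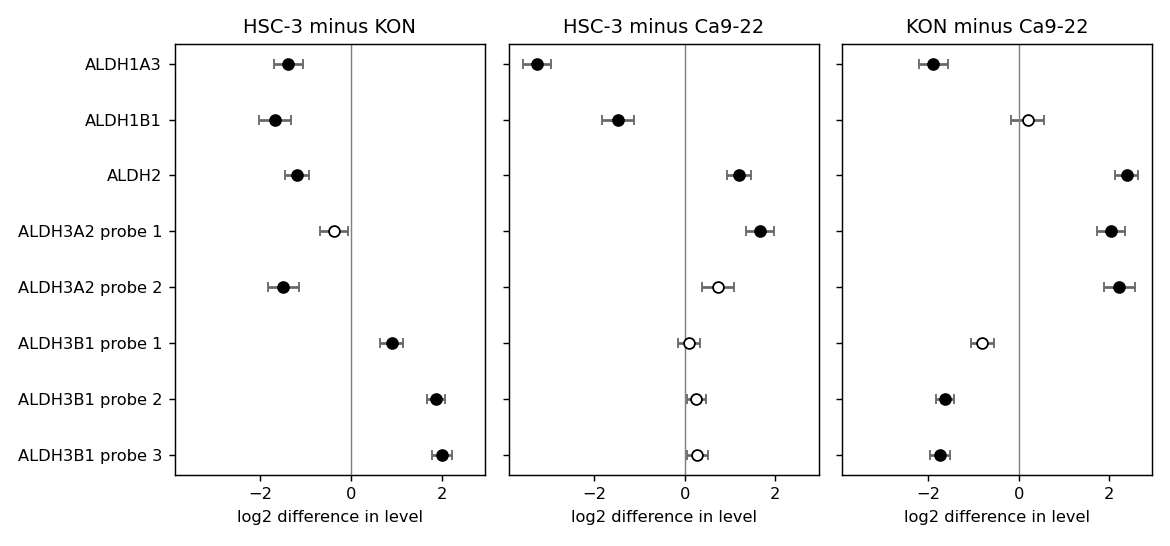
Difference in level between cell lines (log2) for the same 8 probes in each of the 3 contrasts. Points are limma estimates, bars are 1 SE, and filled points have an adjusted p under 0.05. ALDH1A3 and ALDH2 are filled in all 3 panels, and the 2 ALDH3A2 probes differ in which contrasts are filled.

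After DLEU1 knockdown, none of the 8 ALDH probes passed limma with adjustment over all probes, where 8.5% of the 19956 probes did. At an unadjusted p under 0.05, 6 of 8 passed, 2 higher and 4 lower (29.5% of all probes, 14.6% higher and 14.9% lower). The test named in the study's methods called none of the 8 at an unadjusted p under 0.05, where 6.88% of all probes passed, and after adjustment it called no probe at all. None of the 8 was over 2-fold in all 3 lines (4.38% of all probes), and ALDH1A3, 1 of 8, was over 2-fold in 2 lines in the same direction (10.8%). The direction was the same in all 3 lines for 7 of 8 probes (53.6% of all probes). The 8 probes are of 5 genes, with 3 of ALDH3B1 and 2 of ALDH3A2, so these counts include a gene more than once. Over the 8 probes, 4 above and 4 below 0, the median change was −0.32 (log2), beside 0.01 over all probes. It was −0.79 with 1 mean per gene (5 genes), −0.20 without HSC-3, and −0.16 without KON. Without the filter, over all 15 member probes, it was 0.137, beside 0.140 over all probes.

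The lines differed in how many ALDH probes exceeded 2-fold. In HSC-3, 2 of 8 were over 2-fold higher, both of ALDH3B1 (7.53% of all probes). Lower were 4, those of ALDH1A3 and ALDH1B1 and both of ALDH3A2 (6.68%). In KON, 0 were higher (7.3%) and 1 lower (7.29%), and in Ca9-22 0 were higher (6.56%) and 0 lower (6.46%). Whether the lines differ in this was not tested, since each has 1 pair of arrays.

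Relative to siCtrl, the ALDH1A3 level differed by −0.24 in Ca9-22, −1.36 in KON, and −1.14 in HSC-3, and its mean log2 fold change was −0.91 ± 0.59 (SD, n = 3 lines, limma adjusted p = 0.0989). It was lower in 3 of 3 lines, with the smallest size in Ca9-22, where its level was highest. ALDH1B1 had −0.11, −0.96, and −1.46 in the same order, a mean of −0.84 ± 0.68 (SD, n = 3 lines, limma adjusted p = 0.140), and without HSC-3 the mean was −0.54. Both had the smallest size in Ca9-22.

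ALDH3A2 was also lower in 3 of 3 lines by both probes, with little difference in KON. Probe 1 had −0.97 in Ca9-22, −0.17 in KON, and −1.30 in HSC-3, a mean of −0.81 ± 0.58 (SD, n = 3 lines, limma adjusted p = 0.119). Probe 2 had −0.93, −0.03, and −1.35, a mean of −0.77 ± 0.67 (SD, n = 3 lines, limma adjusted p = 0.160), and without HSC-3 the mean was −0.48. The probes gave close fold changes, with means of −0.81 and −0.77.

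Among the members measured on all arrays, ALDH3B1 was the one with values above 0 in 3 of 3 lines, by all 3 probes. Probe 2 had 0.70 in Ca9-22, 0.66 in KON, and 1.14 in HSC-3, a mean of 0.83 ± 0.27 (SD, n = 3 lines, limma adjusted p = 0.0524). Probe 3 had 0.78, 0.51, and 1.20, a mean of 0.83 ± 0.35 (SD, n = 3 lines, limma adjusted p = 0.0636). Probe 1 had 0.51, 0.07, and 0.89, a mean of 0.49 ± 0.41 (SD, n = 3 lines, limma adjusted p = 0.197), and without HSC-3 the mean was 0.29. HSC-3 had the highest value by each of the 3 probes. Probes 2 and 3 lay near the threshold, and with only the probes well above background on all 6 arrays their adjusted p was 0.0378 and 0.0468. It was 0.0676 and 0.0835 with centering on the median, 0.209 and 0.235 without the filter, and 0.0816 for the mean over the 3 probes.

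ALDH2 was the exception to a common direction, with 0.50 in Ca9-22, −0.35 in KON, and 0.26 in HSC-3, a mean of 0.14 ± 0.44 (SD, n = 3 lines, limma adjusted p = 0.709). The 95% interval of the mean ran from −0.41 to 0.69. Its lines lay 1.19 or more apart, so the siRNA difference was smaller than the difference between any 2 lines.

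**Figure D4:**
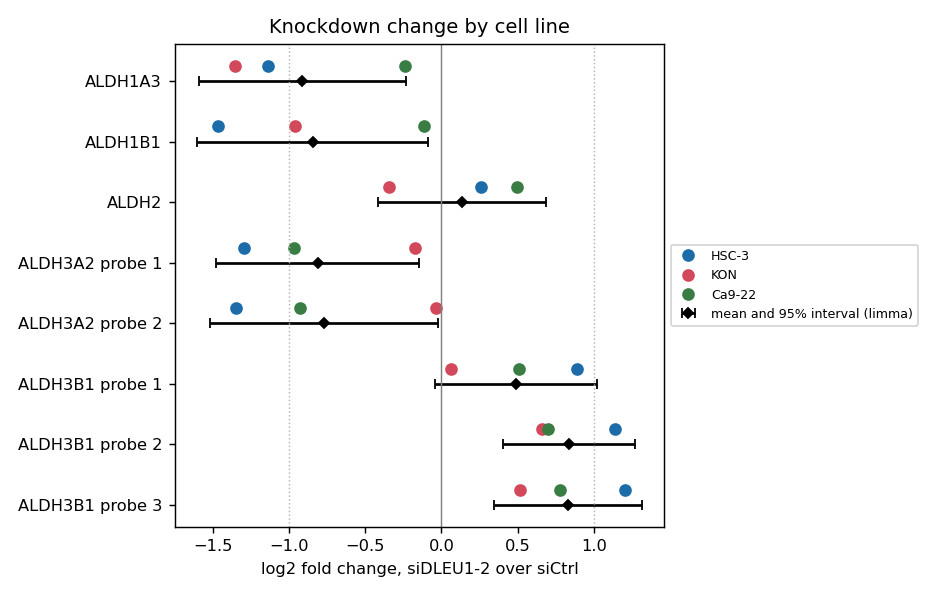
Log2 fold change (siDLEU1-2 over siCtrl) of the 8 ALDH probes. Colored points are the 3 lines, diamonds and bars are the limma mean with its unadjusted 95% interval, and dotted lines mark 2-fold. ALDH1A3, ALDH1B1, and ALDH3A2 lie below 0 and ALDH3B1 above 0 in all 3 lines, and ALDH2 lies on both sides.

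Enzymes around the ALDHs were described from lists of related genes. Among 9 other aldehyde dehydrogenases, 7 had a probe kept, 1 fell, and none rose (4.52% of all probes fell and 3.98% rose). The one that fell was ALDH7A1, the lysine-pathway enzyme, whose mean was −1.21 ± 0.32 (SD, n = 3 lines, limma adjusted p = 0.0321). A second kept probe of ALDH7A1 had −0.41 ± 0.15 and did not pass (SD, n = 3 lines, limma adjusted p = 0.145). The median over the list was −0.35.

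Genes of alcohol and retinoid metabolism are upstream of the ALDH1A enzymes or dispose of their product. Of 25 on the array, 11 had a probe kept, 1 rose (3.98% of all probes), and none fell (4.52%). RDH10, which makes retinaldehyde from retinol, rose by 1.02 ± 0.27 (SD, n = 3 lines, limma adjusted p = 0.0384), a call lost with quantile normalization (adjusted p = 0.0523). CRABP2, which carries retinoic acid to the nucleus, was over 2-fold higher in all 3 lines but did not pass, with 2.17 in Ca9-22, 3.31 in KON, and 1.14 in HSC-3 (limma adjusted p = 0.0510). The median over this list was −0.01. Of 12 retinoic acid receptors and targets, 8 had a probe kept, and none rose or fell by limma. At an unadjusted p under 0.05, which 29.5% of all probes reached, were RXRB (−0.64) and TGM2 (1.51).

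ALDH1L2 belongs to folate one-carbon metabolism, of which 14 of 16 genes had a probe kept. Of these 14, 1 rose (3.98% of all probes) and 1 fell (4.52%). MTHFD2, a mitochondrial folate enzyme, rose by 0.81 ± 0.09 (SD, n = 3 lines, limma adjusted p = 0.0393). GART, a purine synthesis enzyme, fell by 0.83 ± 0.14 on one probe (SD, n = 3 lines, limma adjusted p = 0.0407), while its other probe had 0.20 ± 0.11 (adjusted p = 0.385). The median over the list was −0.09.

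Of 8 genes of the aryl hydrocarbon receptor, to which ALDH3A1 is tied, all had a probe kept and 1 fell (4.52% of all probes). TIPARP, a receptor target that represses it, fell by 1.41 ± 0.26 (SD, n = 3 lines, limma adjusted p = 0.0257) and was over 2-fold lower in all 3 lines. CYP1A1, the classic receptor target, had 0.16 ± 0.21 (SD, n = 3 lines, limma adjusted p = 0.528). The median over this list was −0.17. With any 1 line left out limma called no probe of any gene, so whether the 5 related genes that passed hold on 2 lines could not be seen.

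For ALDH1A3 and ALDH1B1, the members with the widest range over the arrays among those measured on all 6 (3.94 and 2.88 on the log2 scale), the probes of other genes with the closest pattern over the 6 arrays were listed. For ALDH1A3 these were IFT46, RAB36, and ZFP62, with Pearson r of 0.997, 0.995, and 0.991. For ALDH1B1 they were SRP9, SMTN, and ZNF644, with 0.996, 0.993, and 0.993. These are the closest of 19956 probes over 6 arrays that share 3 lines, and no p is given.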

How the data were processed

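RNA of 3 OSCC lines after siCtrl or siDLEU1-2 was measured on 6 one-color arrays. The authors deposited the output of Feature Extraction 10.7.3.1, where each spot has an intensity, background-subtracted on a linear scale and not normalized between arrays; coordinates are on hg19. The deposited series table holds the same intensity, within 0.497%. Background subtraction leaves dim signals uncertain, so a group without a probe well above background has only a bound.

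The processed signal was log2-transformed, and each array's 75th percentile was subtracted. Control and outlier spots were left out and spots of a probe averaged. Probes with at least 50% of their spots well above background on at least 1 array of every line were kept. limma 3.58.1 (R 4.3.3) was fitted with line and siRNA as terms, with Benjamini-Hochberg adjustment over 19956 probes and a threshold of 0.05. A bound is the bright mean against, on each dim array, the higher of its detection floor and the dim value. The line served as block, since the siCtrl and siDLEU1-2 arrays of a number share a line, and deviations within pairs correlated at 0.83, 0.81, and 0.82. With 3 lines, no two-sided exact test can go under p = 0.25. The script was tested on simulated data.

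The 10 members, the lists, and the genes named (called or over 2-fold in all 3 lines in the related lists, and the 3 probes closest to each of the 2 members of widest range among probes measured on all 6 arrays) were chosen with earlier results of these data known. RARRES1, CYP1A1, RXRB, TGM2, and the markers EPCAM and KRT14 fall outside this rule and were named after their values were seen. Alternatives were centering on the median or on probes above background on all arrays, quantile normalization, normexp correction, the series table, other filters on dim probes, values raised to the detection floor, leaving out each line, no block, no siRNA term, the t-test of the methods, a 3-fold threshold, and the mean over probes of a gene.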

Additional observations from a re-analysis of the deposited data

Results flagged for a closer look

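The log2 fold change of ALDH2 after siDLEU1-2 went in different directions between lines, with 0.26 in HSC-3 and 0.50 in Ca9-22 against −0.35 in KON. Each line has 1 pair of arrays, so the difference between lines was not tested.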

How the results depend on the processing

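For the knockdown, limma called 0 of the 8 ALDH probes in the setting reported and under most alternatives. It called 2 when only probes well above background on all 6 arrays were tested (11.4% of all probes) and 1 when dim values were raised to the detection floor (9.73%), in both cases ALDH3B1 and higher. The count over 2-fold in all lines was 0 in each other setting and 0 to 1 with a line left out (1 without Ca9-22). The mean log2 fold change of ALDH2 ranged from −0.044 to 0.38 and was −0.044 without Ca9-22. Of the 8 probes, no other changed direction, and the dim member probes were not followed in this way. The line contrasts gave 17 calls over 8 probes, 4 without the siRNA term, and 3 to 6 with a line left out, where 1 contrast is left; the other scalings, the series table, the stricter filter, and raising dim values gave 16 to 17. Without the filter 9 of the 17 held, and 16 held with a filter added after the data were seen, which kept probes well above background on both arrays of at least 1 line. Member probes outside the 8 gave 7 and 8 more calls there, but those that pass through the line where they are high had to differ. For the line contrasts, the share of all probes called was counted in the setting reported only. Called genes of the related lists were 5, and 4 with quantile normalization (RDH10 lost), 7 with centering on the median or raised dim values, 9 with normexp, 0 without a filter, 8 with probes above background on all 6 arrays, 0 with any line left out, 0 with no replicate block, and 0 by the t-test. Without the replicate block 0 ALDH probes were called. With no filter, the added filter, no replicate block, any line left out, or the t-test, no probe of any gene was called for the knockdown, so a count of 0 there says nothing about these genes.

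One array per line and siRNA, 3 lines, and 1 siRNA sequence limit every comparison. Of the 15 probes, 7 were too dim in at least 1 line to be tested, and their differences are bounds that move with the background correction. Line and culture cannot be told apart, since each line is a single culture per siRNA.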
